A study of Mus musculus with 2 samples.

Results

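Mir134, Mir485, Mir329, Mir381 and Mir495 are 5 microRNA genes of the Mir379-Mir410 cluster on mouse chromosome 12, named here because their products are known for roles in dendrites and at synapses. They were picked by name for those roles, with earlier results of these data known, and they are 5 of the 2202 annotated miRNA genes in the tables and 5 of the 38 that lie on the plus strand from Mir379 to Mir410. The study read short RNA (labelled as below 30 in size) from hippocampal tissue (labelled as a layer of the hippocampus) of male B6CASTF1/J mice aged 18 to 20 months. This strain is an F1 hybrid of the C57BL/6 and CAST backgrounds, and no treatment is named. There was 1 group of 2 libraries, replicate 1 and replicate 2. The labels number them as biological replicates, each with its own tissue entry, under the same donor entry. Whether they came from separate animals is not said, so a difference between them may be technical. No condition could be compared.

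A microRNA is a short RNA cut from the stem of a hairpin transcript, and it lowers the translation or stability of messenger RNAs that pair with its seed, the bases 2 to 8 from its 5′ end. The Mir379-Mir410 cluster belongs to the imprinted Dlk1-Dio3 domain, is expressed from the maternal allele and is strong in brain. In rat neurons, activity raises transcription of the cluster through the factor Mef2, and some of its microRNAs then act locally in dendrites on transcripts that shape spines and branches. The counts are of whole tissue, so more cells of a type and more RNA per cell cannot be told apart, and they do not separate the maternal from the paternal allele.

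The mature sequences are shown because the seed, in capitals, sets which transcripts each product can pair with. They are from RefSeq on build GRCm38.p6, which held at least 1 mature sequence for each of the 5 genes, 9 in all, and are written 5′ to 3′. The miR-485-5p entry is named only.
miR-134-5p: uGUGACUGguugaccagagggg
miR-134-3p: cUGUGGGCcaccuagucacc
miR-485-3p: aGUCAUACacggcucuccucuc
miR-329-5p: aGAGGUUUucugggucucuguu
miR-329-3p: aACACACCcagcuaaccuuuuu
miR-381-5p: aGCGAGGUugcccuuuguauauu
miR-381-3p: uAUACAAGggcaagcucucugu
miR-495-5p: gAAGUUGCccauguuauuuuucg
miR-495-3p: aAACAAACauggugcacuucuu

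No seed occurred more than once among these sequences, which gave 9 distinct seeds. Among the 1738 mature sequences of the table, 3 of the 9 seeds recurred in another gene. The seed of miR-329-3p is also that of miR-362-3p, from Mir362 on chromosome X, and its sequence is shown for comparison.
miR-362-3p: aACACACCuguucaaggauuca
Mir329 had 174 and 284 counts per 1000000 sense counts of all miRNA genes (CPM) in replicates 1 and 2, against 16.8 and 23.2 CPM, from 63 and 130 counts, for Mir362. The seed of miR-134-3p recurs in miR-3620-5p and that of miR-495-3p in miR-1192, whose genes Mir3620 and Mir1192 had 0 counts in both libraries. Such a zero is compatible with up to 3 counts, that is 0.798 CPM in the first library and 0.536 CPM in the second, where the reads of a gene fit no other copy. The seed of miR-495-3p is also that of miR-12200-5p, whose gene Gm51294 was not matched to a row of the tables. The hairpins of the 5 genes shared at most 7 nt in a row with each other.

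Mir381 has a near relative beside it. Its hairpin shares 16 nt in a row with that of Mir300, the next gene upstream, which was the longest stretch that any of the 5 hairpins had in common with another annotated hairpin. The other 4 shared at most 12 or 13 nt. The products on the 3′ arm start differently within the seed, as the Mir300 product shows beside miR-381-3p above.
miR-300-3p: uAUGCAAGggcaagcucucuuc
Mir300 had 1649 counts in replicate 1 and 3204 in replicate 2, for a mean of 506 ± 94.4 CPM (SD, n = 2, as for every mean ± SD below). Each shared stretch was shorter than the mature sequences of these genes, which run from 20 to 23 nt. Reads that mapped to several places entered no gene, and they made up 51.5% of all reads in replicate 1 and 46.7% in replicate 2.

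The tables gave 3758318 sense counts in replicate 1 and 5598792 in replicate 2. As a check of the tissue label, the neuron markers summed to 50764 and 52345 CPM in replicates 1 and 2, with 6 of 9 genes detected. A gene counts as detected when each library holds at least 10 of its reads. The defining neuronal copies Mir124a-1, Mir124a-2 and Mir124a-3 were not detected, and Mir124a-3 had 0 counts. Reads that these copies share enter no gene. Of the 5 muscle genes, Mir206 was detected at 52.2 and 79.7 CPM in replicates 1 and 2. The others, Mir1a-1, Mir1a-2, Mir133a-1 and Mir133a-2, had 0 counts, but these are paired copies whose shared reads enter no gene. The liver gene Mir122 had 23.9 and 47.5 CPM in replicates 1 and 2.

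All 5 genes were detected, at levels well below the leaders of the cluster. Together they had 9416 counts in replicate 1 and 18965 in replicate 2, or 2505 and 3387 CPM, a mean of 2946 ± 624 CPM. That was 0.251% of all counts in replicate 1 (Wilson 95% interval 0.246 to 0.256%) and 0.339% in replicate 2 (0.334 to 0.344%). Intervals here and below cover the counting error of reads within a library only. The reads carry no molecular identifiers and may be copies of 1 molecule, so the intervals may be too narrow even for that error.

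Mir485 had the highest level of the 5. In rat hippocampal neurons its product represses the synaptic vesicle protein Sv2a and limits the number of dendritic spines. It had 5352 counts in replicate 1 and 9769 in replicate 2, which is 1424 and 1745 CPM, a mean of 1584 ± 227 CPM. It ranked 70 and 66 among all miRNA genes. The gene (ENSMUSG00000070128.3) lies on mm10 chromosome 12 from 109734902 to 109734974, whole within an exon of the long non-coding RNA gene Mirg.

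Mir381 came next and had the widest spread between the libraries. In rat neurons its product takes part in activity-dependent growth of dendrites. It had 1638 counts in replicate 1 and 5222 in replicate 2, or 436 and 933 CPM, a mean of 684 ± 351 CPM. Its rank was 121 in replicate 1 and 99 in replicate 2. The gene (ENSMUSG00000098838.2) lies from 109726822 to 109726896 on the same chromosome, outside any annotated host gene.

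Mir134 had nearly the same CPM in both libraries. Its product is the best known of the group, a dendritic microRNA that in rat hippocampal neurons restrains spine size by repressing the kinase Limk1. It had 1306 counts in replicate 1 and 1876 in replicate 2, or 347 and 335 CPM, a mean of 341 ± 8.78 CPM. It ranked 131 and 139. The gene (ENSMUSG00000065426.3) lies from 109734139 to 109734209, whole within an exon of Mirg.

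Mir329 and Mir495 had the lowest levels. Mir329, whose product also acts in activity-dependent dendrite growth in rat neurons, had 655 counts in replicate 1 and 1592 in replicate 2. These are 174 and 284 CPM, a mean of 229 ± 77.8 CPM, at ranks 160 and 149. Mir495, whose product has been described as a repressor of Bdnf in rats, had 465 counts in replicate 1 and 506 in replicate 2. These are 124 and 90.4 CPM, a mean of 107 ± 23.6 CPM, at ranks 174 and 201. Mir329 (ENSMUSG00000065577.1) lies from 109713481 to 109713577 and Mir495 (ENSMUSG00000070105.3) from 109718754 to 109718816, both outside any annotated host gene.

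**Figure D1:**
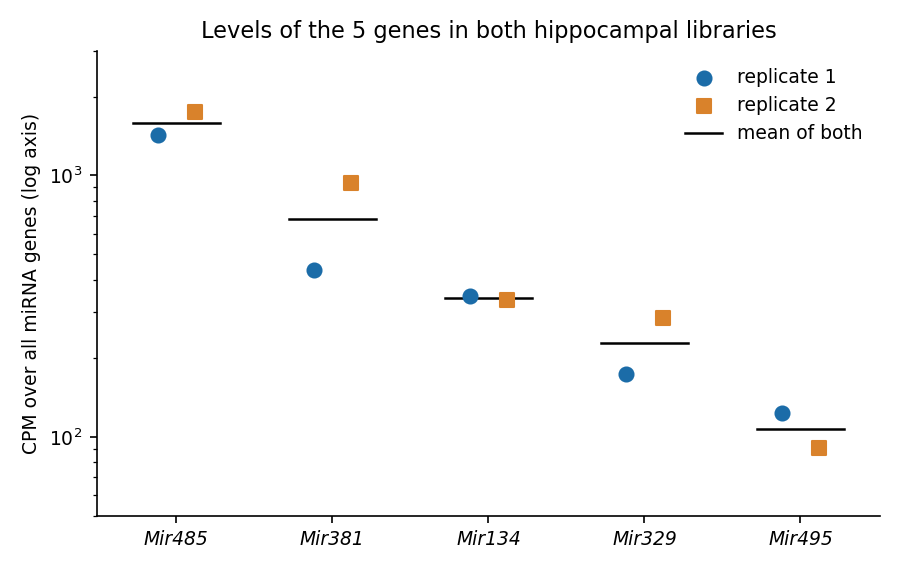
CPM of each gene (log axis) in replicate 1 (circles) and replicate 2 (squares), with a line at the mean of both. The order from Mir485 to Mir495 is the same in both libraries, and the points of Mir381 lie farthest apart, at 436 CPM in replicate 1 and 933 CPM in replicate 2.

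The order of the levels in CPM, Mir485, Mir381, Mir134, Mir329 and Mir495, was the same in both libraries. Ratios of counts within a library do not depend on how the libraries are scaled. For the 4 pairs of neighbours in this order, all 8 ratios had an exact 95% counting interval above 1. The order was set by the mean CPM of these same counts, so the intervals are no independent test of it. How well each sequence was captured in the libraries was not measured. Mir485 had 3.27 times the counts of Mir381 in replicate 1 (interval 3.09 to 3.46) and 1.87 times in replicate 2 (1.81 to 1.94). Mir381 had 1.25 times those of Mir134 in replicate 1 (1.17 to 1.35) and 2.78 times in replicate 2 (2.64 to 2.94). Mir134 had 1.99 times those of Mir329 in replicate 1 (1.81 to 2.19) and 1.18 times in replicate 2 (1.10 to 1.26). Mir329 had 1.41 times those of Mir495 in replicate 1 (1.25 to 1.59) and 3.15 times in replicate 2 (2.84 to 3.48).

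Set against the spread between the libraries, neighbours in the order were less well parted. The ranges of CPM over the libraries did not overlap for any neighbouring pair, but the lower library of Mir381 (436 CPM) was close to both values of Mir134 (347 and 335 CPM). The higher value of Mir329 (284 CPM) was likewise close to them. Divided by hairpin length, the means per 100 nt kept the order, at 2170 CPM for Mir485, 912 for Mir381, 481 for Mir134, 236 for Mir329 and 170 for Mir495. The exception was replicate 1, where per 100 nt Mir495 (196 CPM) was above Mir329 (180 CPM). In replicate 2, Mir495 (143 CPM) was below Mir329 (293 CPM). The reads are of short RNA and not of whole hairpins, so annotated hairpin length need not set the counts.

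The make-up of the group differed between the libraries in the same way under any scaling. Mir485 held 56.8% of the 5-gene counts in replicate 1 (Wilson 95% interval 55.8 to 57.8%) and 51.5% in replicate 2 (50.8 to 52.2%). Mir381 held 17.4% in replicate 1 (16.6 to 18.2%) and 27.5% in replicate 2 (26.9 to 28.2%). Mir134 held 13.9% and 9.89%, Mir329 6.96% and 8.39%, and Mir495 4.94% and 2.67%, in replicates 1 and 2. The intervals of the libraries did not overlap for any of the 5 genes, but they cover counting error only. By a test of counting error on levels, which is another measure, 65.1% of all detected genes were called between the libraries (below). Non-overlap of such shares was not counted for other genes. The shares also add up to the whole, so a rise of 1 gene lowers others. Mir381 and Mir495 stood at the ends: Mir381 had 3.52 times the counts of Mir495 in replicate 1 (exact interval 3.18 to 3.91) and 10.3 times in replicate 2 (9.42 to 11.3).

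**Figure D2:**
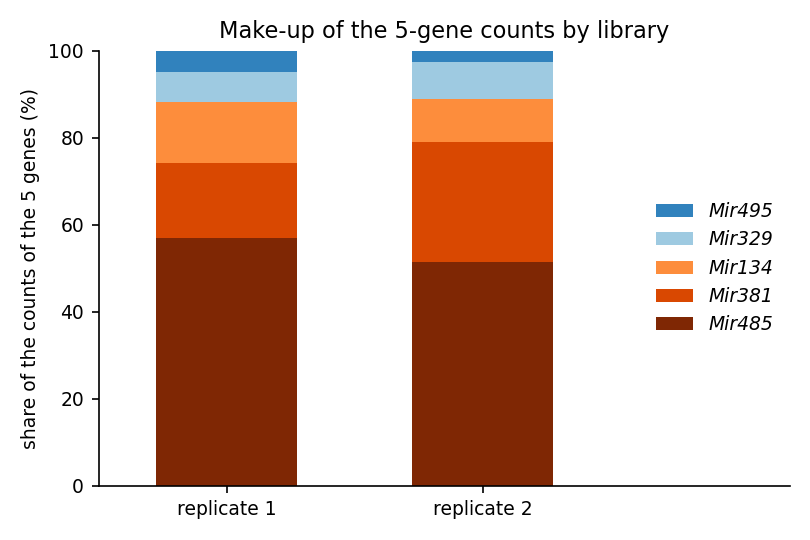
Share of the summed counts of the 5 genes held by each, in replicate 1 (left bar) and replicate 2 (right bar). Mir485 holds the largest share in each bar, 56.8% in replicate 1 and 51.5% in replicate 2, and the share of Mir381 is 17.4% in replicate 1 and 27.5% in replicate 2.

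The libraries were then compared gene by gene with a binomial test of the counts (exact, two-sided), scaled by TMM and with Benjamini-Hochberg adjustment over all 384 detected genes. This test weighs counting error only, and it compares these libraries, not conditions. It called 4 of the 5 genes, where 65.1% of all detected genes were called (34.1% as higher in replicate 1 and 31% as higher in replicate 2). The share is near that background in a group this small.

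The 4 calls went both ways, with log2 ratios given here as replicate 1 over replicate 2 on the TMM scale. Mir495 was 1.71-fold higher in replicate 1 (log2 0.77, binomial adjusted p = 6.2e-16, exact test) and Mir134 1.29-fold higher in replicate 1 (log2 0.37, exact test, adjusted p = 5.71e-12). Mir381 was 1.72-fold higher in replicate 2 (log2 -0.78, exact test, adjusted p = 9.62e-88) and Mir329 1.31-fold higher in replicate 2 (log2 -0.39, exact test, adjusted p = 8.62e-09). Mir485 had a log2 ratio of 0.02 and was not called (exact test, adjusted p = 0.404). None differed by 2-fold on this scale, whereas 14.8% of detected genes were called and differed by at least 2-fold. By size of the log2 ratio, Mir381 and Mir495 stood at percentiles 75.8 and 75 of all detected genes, Mir329 and Mir134 at 43 and 41.1, and Mir485 at 3.65. The median size over the 5 genes was 0.39, against 0.44 over all detected genes.

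**Figure D3:**
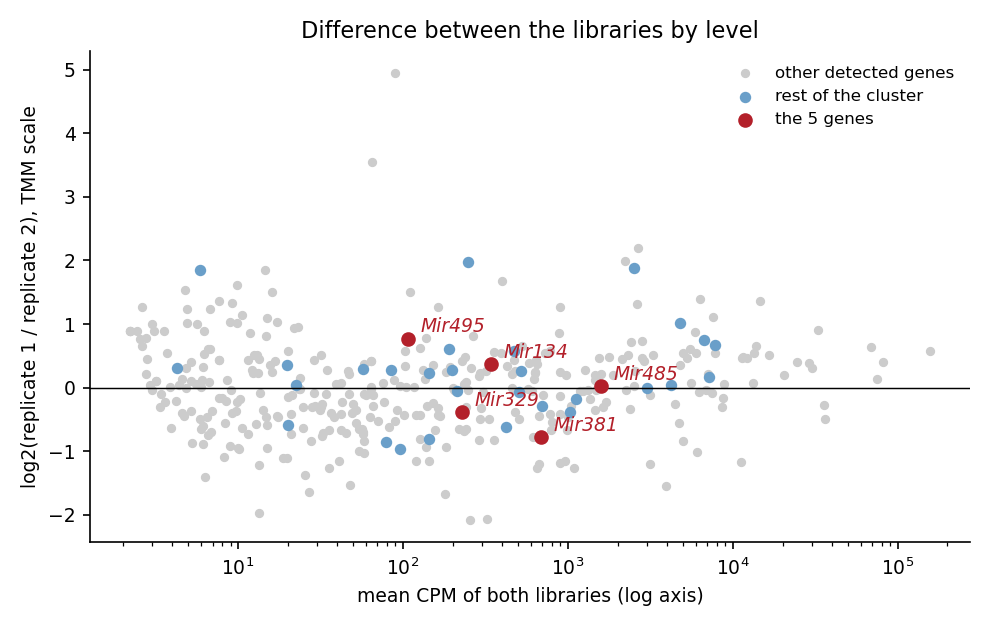
Log2 ratio of replicate 1 over replicate 2 on the TMM scale against mean CPM (log axis) for the 384 detected genes, with the 5 genes and the rest of the cluster coloured. The 5 genes lie between -0.78 (Mir381) and 0.77 (Mir495), inside the range of the other genes.

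The spread between the libraries over all detected genes, as the edgeR common dispersion, was a coefficient of variation of 34.4%. With that dispersion the edgeR exact test called 0 of the 5 genes, 0 of them at an unadjusted p under 0.05, and 2 of 384 genes (0.521%) overall. The dispersion comes from the difference between the same 2 libraries, so few calls were possible by construction and this count says nothing particular about the 5 genes. Directions also moved with the scaling, since total-count scaling shifted all log2 ratios by -0.32 against TMM. With total counts, Mir134 had a log2 ratio of 0.05 and was not called (exact binomial test, adjusted p = 0.377), and Mir485 was called as higher in replicate 2, at log2 -0.29. With total counts, 1 of the 5 genes was called as higher in replicate 1 and 3 as higher in replicate 2, where 19.8% and 50.8% of all detected genes were called in those directions (70.6% in all). Over all genes that is 76 higher in replicate 1 and 195 in replicate 2, where TMM gave 131 and 119. Mir381 and Mir329 were higher in replicate 2, and Mir495 in replicate 1, under all 4 scalings tried. The difference of Mir381 passed 2-fold with total counts (2.14-fold) and with the summed rest of the cluster as library size (2.4-fold).

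**Figure D4:**
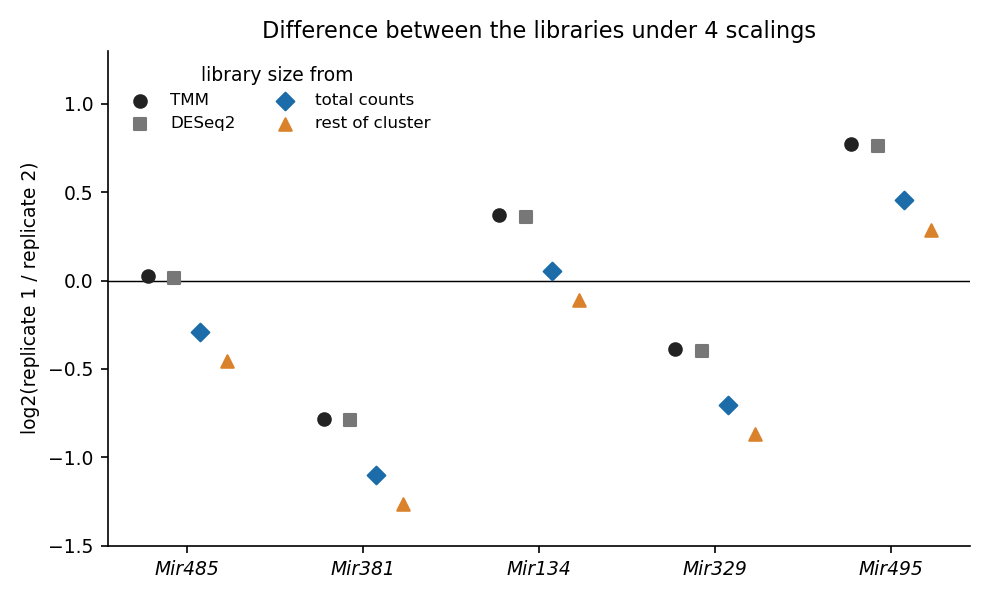
Log2 ratio of replicate 1 over replicate 2 for each of the 5 genes, with library sizes from TMM, DESeq2 size factors, total sense counts or the summed rest of the cluster. Mir381 and Mir329 lie below 0 and Mir495 above 0 under all 4, while Mir485 and Mir134 cross 0.

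The calls among cell markers, also on the TMM scale, stand beside the 65.1% of all detected genes that were called. Of all detected genes, 34.1% were called as higher in replicate 1 and 31% as higher in replicate 2. The choroid plexus and ependyma genes summed to 2100 and 3114 CPM in replicates 1 and 2, with 4 of 6 detected called by the binomial test, each as higher in replicate 2. The endothelial and mural genes summed to 22045 and 16510 CPM in replicates 1 and 2, with 3 of 3 called as higher in replicate 1. The astrocyte genes (25467 and 25209 CPM in replicates 1 and 2) had 3 of 3 called and the microglia and leukocyte genes (3700 and 3395 CPM) 4 of 5, each as higher in replicate 1. Such directions depend on the scaling. The highest astrocyte gene, Mir29a, had a log2 ratio of 0.19 on the TMM scale, but 19511 CPM in replicate 1 and 21307 in replicate 2. The oligodendrocyte genes summed to 6092 and 9710 CPM in replicates 1 and 2, with 1 called each way. All 6 detected neuron markers were called, 4 as higher in replicate 1 and 2 in replicate 2. The erythroid genes had 1 of 2 called, and the muscle and liver genes 1 of 1 detected, each as higher in replicate 2. The part of these cells in the differences of the 5 genes was not tested.

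Within the Mir379-Mir410 cluster, which spans 34.7 kb, the 5 genes held a minor and unequal share. They made up 5.29% of the cluster's counts in replicate 1 (Wilson 95% interval 5.18 to 5.39%) and 7.8% in replicate 2 (7.69 to 7.91%), while the whole cluster was 4.74% of all counts in replicate 1 and 4.34% in replicate 2. Mir381 gave the largest part of that gap, with 0.92% of the cluster in replicate 1 and 2.15% in replicate 2. Mir485 held 3% and 4.02%, and Mir329 0.368% and 0.655%. Mir134, at 0.733% and 0.772%, and Mir495, at 0.261% and 0.208%, held more even shares of the cluster.

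The median level of the 5 genes was 341 CPM and that of the other 33 cluster genes 200 CPM, but the leaders of the cluster were other genes. By mean CPM among the 38 genes, Mir485 ranked 8, Mir381 12, Mir134 17, Mir329 19 and Mir495 25. The top 5 were Mir411 (7757 ± 1328 CPM), Mir382 (7191 ± 510 CPM), Mir487b (6638 ± 1371 CPM), Mir379 (4813 ± 1618 CPM) and Mir541 (4229 ± 580 CPM). Of the other 33, 29 were detected and 23 called between the libraries on the TMM scale, 15 as higher in replicate 1 and 8 in replicate 2, beside 65.1% of all detected genes called, 34.1% and 31% in those directions. Their median log2 ratio was 0.22, against 0.02 for the 5 genes and 0.01 over all detected genes.

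Levels did not run smoothly with position. Mir134 and Mir485 sit 25.1 and 25.8 kb from the start of Mir379 in a run of 4 neighbouring hairpins in Mirg. There, Mir382 had 7191 ± 510 CPM, Mir134 341 ± 8.78 CPM, Mir668 518 ± 15.3 CPM and Mir485 1584 ± 227 CPM, with gaps of 292, 522 and 104 nt between them. Mir453, 644 nt after Mir485, had 0 counts in both libraries. Mir381 lies between Mir300 (506 ± 94.4 CPM) and Mir487b (6638 ± 1371 CPM), which starts 436 nt downstream. Mir329 lies between Mir758 (4.27 ± 0.0208 CPM) and Mir494 (22.3 ± 3 CPM), and Mir495 between Mir543 (200 ± 4.5 CPM) and Mir667 (420 ± 187 CPM). The last gene of the cluster, Mir410, had 84 ± 1.42 CPM.

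**Figure D5:**
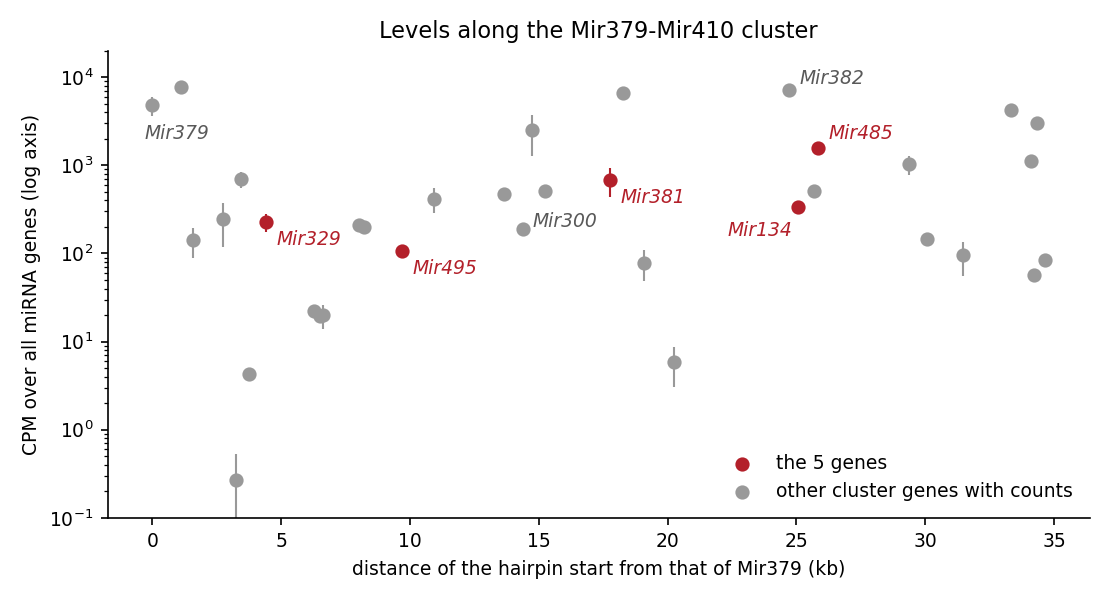
Mean CPM (log axis) of each cluster gene with counts against the distance of its hairpin from that of Mir379, with a bar from the lower to the higher library (cut at 0.1 CPM). The 5 genes (red) lie between 107 and 1584 CPM, and Mir382, the neighbour of Mir134, stands at 7191 CPM.

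Between the libraries, the chromosome neighbours of Mir134 shared its direction on the TMM scale but not by CPM. By CPM, Mir134 went from 347 in replicate 1 to 335 in replicate 2. Mir382 went the other way, from 6830 to 7552 CPM, and so did Mir668, from 507 to 529 CPM. Not all neighbours of Mir381 or of Mir495 shared the direction of that gene. On the TMM scale, Mir381 had a log2 ratio of -0.78, against -0.07 for Mir300 before it and 0.74 for Mir487b after it. Next to Mir495 (0.77), Mir543 had 0.27 and Mir667 had -0.62. Next to Mir134 (0.37), Mir382 had 0.17 and Mir668 had 0.26, and Mir668 also lies next to Mir485 (0.02). Next to Mir329 (-0.39), Mir758 had 0.31 and Mir494 had 0.04, and neither was called. Over the 12 detected cluster genes in Mirg the log2 ratio ran from -0.96 to 0.37, of which Mir134 was the highest, and over the 22 detected genes outside Mirg from -0.86 to 1.97.

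The hairpins of the 5 genes differed in make-up. Mir134 had the highest GC content, 60.6%, followed by Mir485 (47.9%), Mir329 (42.3%), Mir381 (40%) and Mir495 (34.9%). Their lengths were 71, 73, 97, 75 and 63 nt in that order. The predicted minimum free energy was -34.4, -35.1, -37.4, -35.5 and -22.8 kcal/mol in the same order. The shortest and least GC-rich hairpin, Mir495, was thus the least stable by prediction. These energies are not corrected for length, and the annotated Mir495 hairpin ends at the last base of miR-495-3p. A link of these traits with level was not tested. No miRNA gene is annotated opposite any of the 5, and each had 0 opposite-strand counts in both libraries.

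By mean CPM over all 2202 genes, which is not per length, the genes nearest in level lay outside the cluster for 4 of the 5. Mir485 stood between Mir181d (1589 ± 84.5 CPM) and Mir676 (1546 ± 108 CPM). Mir134 stood between Mir672 (351 ± 9.81 CPM) and Mir673 (333 ± 130 CPM), and Mir673 is also on chromosome 12. Mir329 stood between Mir298 (234 ± 29.3 CPM) and Mir20a (227 ± 11.9 CPM), and Mir495 between Mir16-2 (110 ± 60.1 CPM) and Mir15b (104 ± 15.7 CPM). Mir381 stood between Mir323 of the same cluster (692 ± 201 CPM) and Mir153 (671 ± 458 CPM). With 2 libraries, likeness in level is a rank only, and the gap in mean was below the SD of at least 1 of the genes for every pair except Mir134 and Mir672.

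Other microRNAs with described dendritic or synaptic roles, encoded outside the cluster, had a far higher sum but a median level near that of the 5 genes. The 5 cluster genes summed to 2505 CPM in replicate 1 and 3387 in replicate 2, against 56977 and 59248 CPM for the 26 genes of that list. All 9 neuron markers used above are in the list too, and they held 50764 and 52345 of its CPM. Mir132, which activity induces through Creb, led with 16652 ± 1642 CPM, followed by Mir128-1 (13308.5 ± 1589 CPM) and Mir137 (12226 ± 884 CPM). The median was 341 CPM for the 5 genes and 373 CPM for the list as matched, which lacks Mir92a-1 and Mir92a-2. Genes annotated as Mir92-1 (mean 241 CPM) and Mir92-2 (mean 7.97 CPM), both below that median, were not counted in it. The sum, median and calls are therefore of an incomplete list. Of the list, 22 were detected and 20 called between the libraries on the TMM scale, 14 as higher in replicate 1 and 6 in replicate 2, beside the same 65.1%, 34.1% and 31% of all detected genes. The median log2 ratio of the list was 0.28. Members of the list with copies elsewhere, such as Mir124a and Mir9, lose reads that map to several places.

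Seed matches to these microRNAs were looked up in the longest annotated 3′ UTR of transcripts described as their targets, on the sense strand only. The motif for miR-134-5p, CAGTCAC, was found in Pum2, a translational repressor in dendrites, and in Creb1, an activity-dependent transcription factor, 1 and 3 times. It was not found in the 1184 nt of Limk1, but only the full motif was searched, so a shorter match there is not excluded. That motif occurred in 19.5% of 3′ UTR windows of the length of Pum2, in 40.6% of those of the length of Creb1 and in 9.07% of those of the length of Limk1. The sites of Pum2 and the first of Creb1 are shown with the match in capitals, at chr12:8751834-8751862 and chr1:64600344-64600372 on the plus strand of mm10.
Pum2: ttcaccattctCAGTCACactgcttcatc
Creb1: gagtatgttacCAGTCACttaaaaactcc
The motif for miR-134-3p, GCCCACA, occurred 1 time in Limk1 and 0 times in Pum2 and Creb1, where 9.03%, 20.3% and 39.3% of windows of the same length held it.

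For miR-495-3p the motif GTTTGTT occurred 5 times in the 3′ UTR of Bdnf, a growth factor of neurons, of which 3 overlap in a repeat of GTTT. Of windows of that length, 43.2% held it. The first site, at chr2:109724375-109724403 on the plus strand, lies outside that repeat.
Bdnf: ataatgttgtgGTTTGTTgccgttgccaa
The motif for miR-495-5p, GCAACTT, occurred 1 time in Bdnf and in 13.3% of such windows. A match is a run of letters and not a measured site, and the tables hold no messenger RNA. The counts are per hairpin, so they do not show how many reads came from the 5′ or the 3′ arm.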

How the data were processed

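The authors deposited 1 table of raw read counts per miRNA gene for each library. Per the text deposited with the tables, the assembly was mm10 and the gene annotation M21. Which aligner and counter made them is not given in the sources used here. Each table has an unstranded count and 2 stranded ones. The first stranded column held nearly all stranded counts and was taken as sense. The 4 summary lines stayed out of totals and tests. Of all reads, 9.53% were unmapped in replicate 1 and 14.4% in replicate 2, and 35.5% and 34.7% were counted in sense. GENCODE M21 named all 2202 identifiers.

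CPM are counts per 1000000 sense counts. Detection needed at least 10 sense counts in each library. TMM factors, the common dispersion and the edgeR exact test came from edgeR 4.0.16 (R 4.3.3), size factors from DESeq2 1.42.0, binomial tests and intervals from scipy 1.17.1, and hairpin energies from RNAfold 2.7.2. Adjusted p at or under 0.05 was called. The binomial test was tested on simulated counts.

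The cluster is every plus-strand miRNA gene from Mir379 to Mir410. Named are the 5 genes, their neighbours in position and in level, the first, last and 5 highest cluster genes, the 3 highest of each list that is described by gene, and genes that share a seed. Mir300, Mir453, the Mir124a copies and genes at 0 counts were named for what the sentence says of them. Mir92a-1 and Mir92a-2 matched no symbol. The 5 genes, the lists and the target transcripts were chosen with earlier results of these data known. A 3′ UTR was the exonic sequence after the stop codon, and its windows were the first bases, to the same length, of the longest 3′ UTR of every gene with enough of it.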

Additional observations from a re-analysis of the deposited data

How the results depend on the processing

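The summed level of the 5 genes was 2505 to 3387 CPM with 1 library left out, and their share of the cluster 5.29 to 7.8%. With reads mapped to several places and outside features added to the total, the sum was 1178 CPM in place of 2946. With unstranded counts it was 3189 CPM and with TMM library sizes 2916 CPM, both within 1 SD. The count of genes called between the libraries was 250, and the alternatives other than the edgeR exact test gave 203 to 282, with 4 or 5 of the 5 genes called. The edgeR exact test with a common dispersion called 2 genes, 0 of the 5, and 18 of 384 at an unadjusted p under 0.05. Its dispersion was estimated from the same 2 libraries, so few calls were possible by construction. The direction of Mir485 turned with total counts (log2 -0.29) and with the rest of the cluster as library size (log2 -0.46), and that of Mir134 with the rest of the cluster (log2 -0.11). These scalings shift all genes alike by construction. With the rest of the cluster as library size, 49 genes were called as higher in replicate 1 and 233 in replicate 2. No ratio between libraries can be had without a replicate, so none was left out there. No paired analysis was possible because there is 1 group. With 2 libraries, each SD rests on 2 values, and a ratio of counts such as that of Mir495, with 465 and 506 counts, is limited by depth more than that of Mir485.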
